A study of Mus musculus with 6 samples.

Results

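Glutathione transferases, aldo-keto reductases, aldehyde dehydrogenases, carboxylesterases and cytochromes P450 were compared between mast cells of 2 mouse strains. These enzymes were picked by the start of their gene symbol (Gst of the classes a, k, m, o, p, t and z, Mgst, Akr1, Akr7, and Aldh, Ces or Cyp followed by a digit), and symbols of pseudogenes marked -ps were left out. The rule gave 183 of the 35293 genes that could be named in the tables. The study compared BALB/c with C57BL/6 mice in allergic airway inflammation and asked here whether mast cells of the strains hold different enzymes. Bone marrow of naive wild type mice was cultured with stem cell factor, TGF-β1, IL-3 and IL-9, which turns it into bone marrow-derived mast cells (BMMCs), and RNA was taken on day 20 from 3 BALB/c samples (libraries S9, S10 and S11) and 3 C57BL/6 samples (S12, S13 and S14). Neither strain was treated further, and cells grown for weeks in these cytokines are a model of mast cells rather than mast cells taken from a tissue. The study calls the 3 samples of a strain biological replicates, but the labels do not say that each came from its own mouse, so the p-values measure the spread between these samples, which may be partly technical.

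These families form the chemical defence of a cell. Cytochromes P450 add oxygen to drugs, steroids, retinoids and fatty acids, aldo-keto reductases and aldehyde dehydrogenases reduce or oxidise the reactive carbonyls that arise, carboxylesterases cleave esters, and glutathione transferases couple the products to glutathione so that they can be pumped out. In mast cells, relatives of the same enzymes also make and break down leukotrienes, prostaglandins and steroids. Many of the genes answer to the aryl hydrocarbon receptor (AhR) or to the stress regulator NRF2.

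Between 28271211 and 37098659 reads per library were assigned to named genes, and the members held between 0.373% and 0.411% of them. The label mast cell fitted the markers, since all 8 mast cell genes of the list (Kit, Fcer1a, Ms4a2, Cpa3, Hdc, Gata2, Mitf and Cma1) were detected in every library, with a summed level of 27306 to 29942 CPM in BALB/c against 26440 to 27846 CPM in C57BL/6. The sum is mostly Cpa3 and Cma1, and single genes of the list differed, with Hdc higher in C57BL/6 by 1.19 (adjusted p = 7.4e-04, edgeR) at 1.76 to 5.93 CPM, Ms4a2 higher by 0.25, and Cma1 and Mitf lower (log2 fold changes -0.43 and -0.23). CPM are counts per size of the library, after a correction of the library sizes by TMM factors. The 6 basophil genes summed to 404 to 416 CPM in BALB/c against 500 to 510 CPM in C57BL/6. Of these, Mcpt8 (log2 fold change 1.12), Prss34 (5.86) and Cebpa (6.53) were higher in C57BL/6, the last pair having at most 8 reads in a BALB/c library, while Il18r1 fell by 0.54 (adjusted p = 0.0041, edgeR) and Cd200r3 (-0.07) and Itga2 (0.15) did not pass the test. The 7 macrophage genes summed to 0.705 to 1.63 CPM in BALB/c against 13.4 to 13.9 CPM in C57BL/6, all but a trace of it from Adgre1 and Cd68, while Csf1r, C1qa and C1qb were at 0 in every library. Of 6 erythroid genes only Hbb-bt differed in this way (0 reads in every BALB/c library and 160 to 214 in C57BL/6), so the list summed to 0.266 to 0.534 CPM in BALB/c against 6.04 to 6.19 CPM in C57BL/6. Neutrophil genes had at most 3 reads in a library, eosinophil genes at most 15, and of the T or NK cell genes only Ncr1 was seen. The summed levels of the basophil, macrophage and erythroid lists thus differed between the strains, through some of their genes only, and their part in the differences of the members was not tested.

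Reads were found for 91 of the 183 members, and 92 were at 0 in every library. Of the 101 cytochromes P450, which include the large liver families, 64 had no read, and of the 19 carboxylesterases 14 had none. Taken by symbol, the 101 also include Cyp4x1os, a long non-coding RNA, and Cyp2d13, listed by RefSeq as a transcribed pseudogene. Neither had enough reads for a test. Reads were seen for 17 of the 21 aldehyde dehydrogenases, 18 of the 22 glutathione transferases and all 3 microsomal ones. Enough reads for a test were found for 48 members, none of the other 135 having more than 15 reads in a library.

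Levels between genes are compared here as TPM, in which reads are divided by transcript length. A single P450 dominated. Cyp11a1, the mitochondrial enzyme that cuts the side chain of cholesterol in the first step of steroid synthesis, stood at 1292, 1389 and 1307 TPM in BALB/c and at 1237, 1123 and 1171 TPM in C57BL/6. This was between 37.96% and 39.9% of the summed TPM of all members, in each of the 6 libraries. Together with Akr1c13 and Akr1a1, it made up 60.4% to 69.2% of the sum.

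Below Cyp11a1 followed Akr1c13 (mean of the 6 libraries 480 TPM), the aldehyde reductase Akr1a1 (355 TPM), Gstp1, the pi class glutathione transferase (176 TPM), Akr1c12 (167 TPM), Aldh2, the mitochondrial enzyme that oxidises acetaldehyde (163 TPM), and aldose reductase Akr1b3 (130 TPM). This order is that of the means over both strains. Akr1c13 was above Akr1a1 in each BALB/c library, but in C57BL/6 Akr1a1 had 332, 336 and 341 TPM against 318, 328 and 315 TPM for Akr1c13. Cyp51, which removes a methyl group from lanosterol on the way to cholesterol, had 68.4 TPM, and Aldh18a1, which makes the precursor of proline, had 65.1 TPM. The order of Gstp1, Akr1c12 and Aldh2 also turned with the strain. In BALB/c Gstp1 (184 to 204 TPM) was above Aldh2 (145 to 165 TPM) and Aldh2 above Akr1c12 (77.3 to 104 TPM). In C57BL/6 Akr1c12 (241 to 250.2 TPM) was above Aldh2 (159 to 176 TPM), and Gstp1 (153 to 158 TPM) was lowest, close to Aldh2. The highest carboxylesterase, Ces2b, reached only 0.162 to 0.288 TPM, and no other carboxylesterase had more than 2 reads in a library. Of the alpha class glutathione transferases none had enough reads for a test, and Mgst1, which protects membranes of many cells from peroxides, had at most 2 reads.

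**Figure D1:**
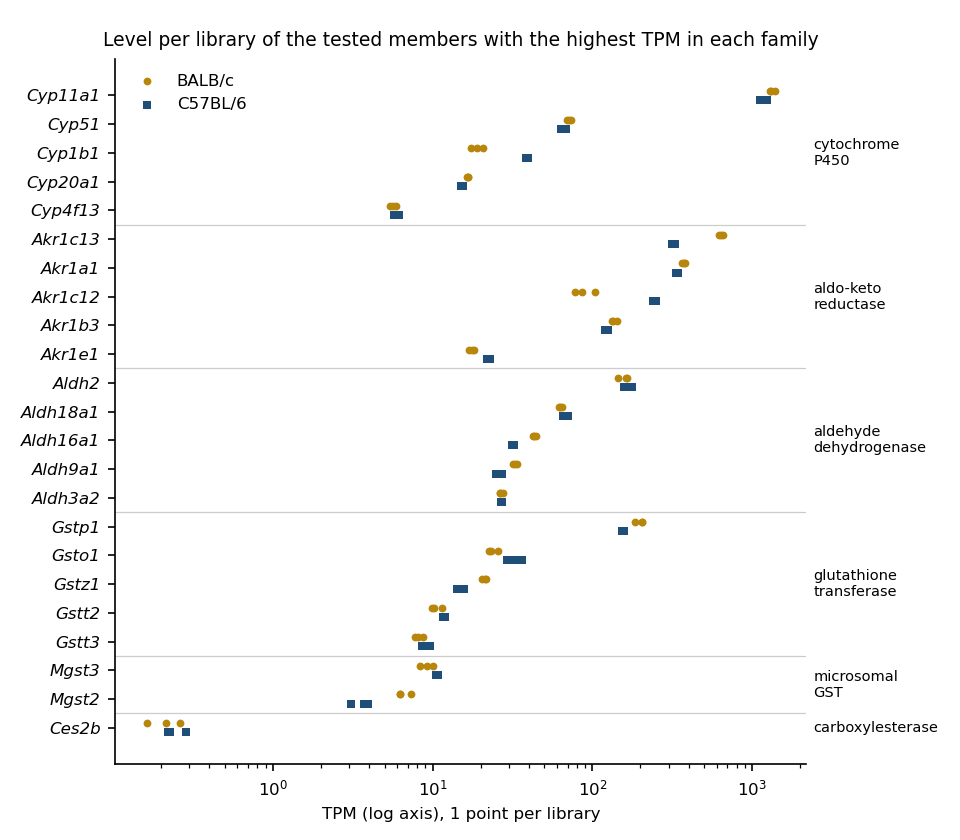
TPM (log axis) of the up to 5 tested members with the highest mean in each family, with 1 point per library, circles for BALB/c and squares for C57BL/6. Cyp11a1 lies at or above 1123 TPM in all 6 libraries, Akr1c13 and Akr1c12 are set apart by strain in opposite directions, and Ces2b lies below 0.3 TPM.

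Strain differences were tested with edgeR's quasi-likelihood test on the whole table of 12458 genes with enough reads, and genes were called at an adjusted p (Benjamini-Hochberg) under 0.05 and a change above 2-fold. Of the 48 tested members, 7 (14.6%) were called higher in C57BL/6, where 7.73% of all tested genes were, and 1 (2.08%) was called lower, where 5.54% of all were. Akr1c18 and Cyp4f18 passed the filter on low counts only through C57BL/6, so they had to differ. Neither their adjusted p nor these shares support anything on their own. Cyp2d22 and Cyp26b1 reached the filter count in 2 BALB/c libraries and in all 3 C57BL/6 libraries, so BALB/c alone would not have let them in. Called higher were the P450s Cyp4f18, Cyp2d22, Cyp4v3, Cyp1b1 and Cyp26b1 and the aldo-keto reductases Akr1c18 and Akr1c12, and called lower was Aldh5a1. No glutathione transferase, microsomal or soluble, passed the 2-fold mark. In bulk RNA of a culture, fewer cells of a type and less RNA per cell cannot be told apart.

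By the adjusted p alone, 25 members (52.1%) were higher in C57BL/6 against 27.0% of all genes, 8 (16.7%) were lower against 25.9% of all, and 15 did not pass. For 34 members (70.8%) every library of a strain lay on the same side of the other strain, against 61.9% of all genes. The median log2 fold change was 0.31 over the tested members and -0.01 over all tested genes. The split between small increases and small decreases depended on the scaling. With plain library sizes, which moved the median of all genes to -0.15, 18 members (37.5%) were higher and 14 (29.2%) lower by the adjusted p, where 18.3% of all genes were higher and 44.3% lower. The numbers called past 2-fold were then 6 (12.5%) and 1 (2.08%), against 6.73% and 6.65% of all. Changes under about 0.15 on the log2 scale therefore carry no fixed direction.

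**Figure D2:**
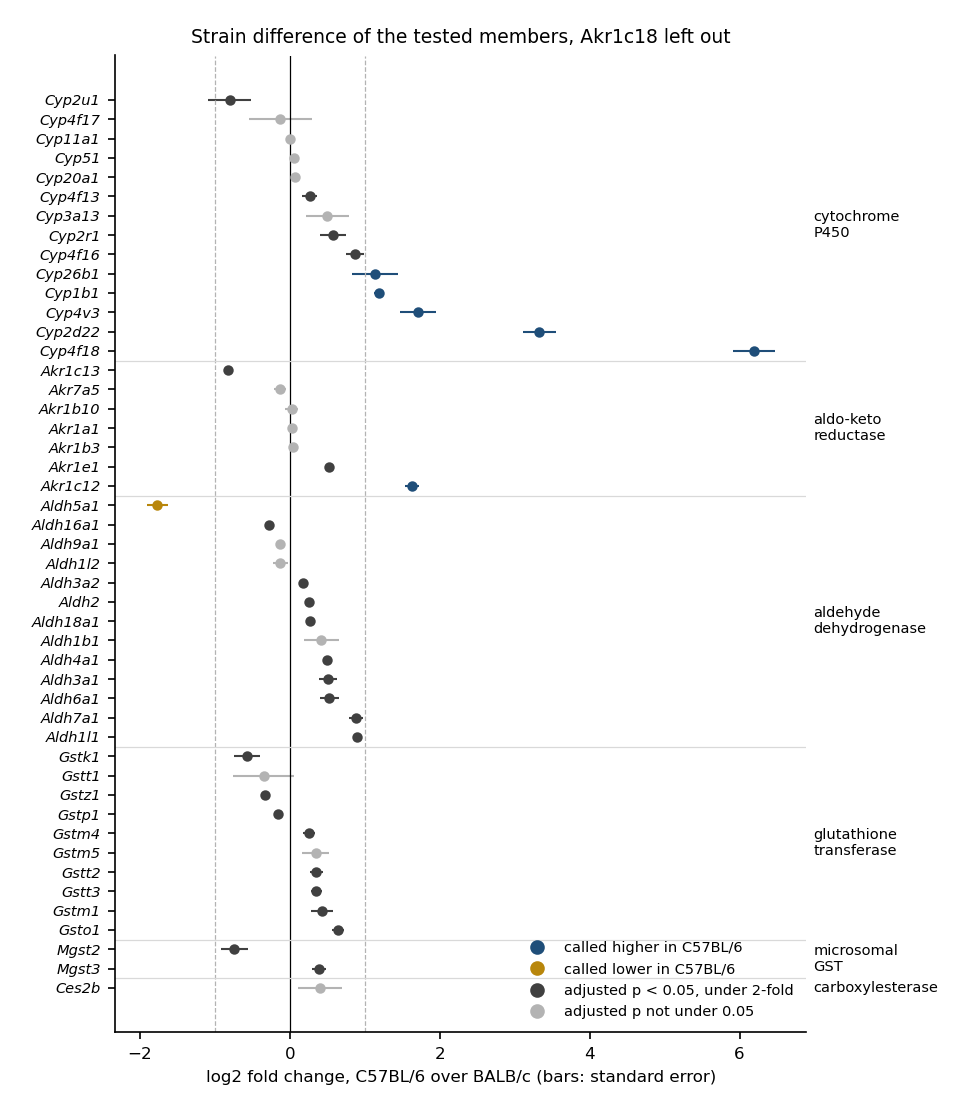
Log2 fold change, C57BL/6 relative to BALB/c (edgeR, bars are standard errors) for 47 tested members by family, with dashed lines at 2-fold. Akr1c18, which had no read in BALB/c, is left out because its fitted value is no measure of size. The called genes reach from -1.77 for Aldh5a1 to 6.19 for Cyp4f18, and the glutathione transferases all lie between the dashed lines.

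Among the P450s of fatty acids and their derivatives, the gap between the strains was widest for Cyp4f18. This enzyme oxidises the end of the leukotriene B4 chain in mouse leukocytes and so takes part in inactivating a chemoattractant. Its reads were 1, 4 and 3 in BALB/c against 188, 153 and 247 in C57BL/6. The summed reads, scaled to library size, were 77.3 times higher in C57BL/6 (95% exact interval 38.95 to 179.8, counting error only), and edgeR's quasi-likelihood test gave a log2 fold change of 6.19 (SE 0.28, adjusted p = 2.4e-07). In C57BL/6 the level was 6.18 ± 0.711 CPM (SD, n = 3), so it is a low-level transcript there and close to absent in BALB/c. Most C57BL/6 reads of Cyp4f18 (81.5% to 95.9% per library) lay on its 1 curated transcript, whereas 7 of the 8 BALB/c reads lay on a short predicted one. With curated transcripts alone the fitted value was 8.61, which is no measure of size with 1 read in BALB/c.

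Cyp4v3, the mouse counterpart of a fatty acid hydroxylase of the human eye, had 16, 12 and 15 reads in BALB/c against 47, 42 and 45 in C57BL/6. The strains did not overlap, and the level was 3.27-fold higher in C57BL/6 (log2 fold change 1.71, SE 0.24, adjusted p = 2.8e-04, edgeR). In the same family, Cyp4f16 rose by a log2 fold change of 0.87 (SE 0.12, adjusted p = 3.0e-04, edgeR), from 5.73 ± 0.869 to 10.4 ± 0.691 CPM (SD, n = 3), which is under 2-fold. Cyp4f13 had a value of 0.26 with an adjusted p at the threshold, lost under 13 alternatives, and Cyp4f17 had a value of -0.13 (SE 0.42) with overlapping strains. Cyp4f15, too low for the test, had 15, 10 and 10 reads in BALB/c against 3, 0 and 2 in C57BL/6, opposite in direction to Cyp4f18.

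Of the P450s of foreign compounds, Cyp1b1 had by far the most reads. It oxidises polycyclic hydrocarbons and oestradiol and is a classical target of AhR. Its level was 67.6, 55.4 and 62.1 CPM in BALB/c against 136, 146 and 140 CPM in C57BL/6. Each C57BL/6 library lay above each BALB/c library, and the change was 2.28-fold (log2 fold change 1.19, SE 0.07, adjusted p = 1.0e-06, edgeR). Cyp1a1, the other well-known AhR target, had 1, 2 and 3 reads in BALB/c against 6, 5 and 8 in C57BL/6, too few for the test.

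Cyp2d22, the mouse gene most often set beside the human drug-metabolising CYP2D6, had 7, 11 and 13 reads in BALB/c against 109, 82 and 109 in C57BL/6. This was a 10.1-fold higher level in C57BL/6, with no overlap (log2 fold change 3.33, SE 0.22, adjusted p = 2.8e-06, edgeR). Cyp2r1, which makes the circulating form of vitamin D, rose by 0.58 (SE 0.17, adjusted p = 0.019, edgeR), but did not pass under 6 alternatives, among them DESeq2 (adjusted p = 0.0980). Cyp2u1, a hydroxylase of long-chain fatty acids, fell by 0.80 on the log2 scale (SE 0.28, adjusted p = 0.038, edgeR) but it lost the adjusted p under 10 alternatives, among them DESeq2 (adjusted p = 0.217).

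Cyp26b1, which degrades retinoic acid, had 9, 17 and 16 reads in BALB/c against 27, 23 and 39 in C57BL/6. It was 2.20-fold higher in C57BL/6 (log2 fold change 1.14, SE 0.30, adjusted p = 0.012, edgeR). The call was close to its limits and was lost under 7 of 15 alternatives, namely without S9 (0.92) or S14 (0.99), with plain library sizes (0.99), DESeq2 (adjusted p = 0.0559), log2(TPM + 1) (0.15) or log2(TPM + 0.1) (0.65), and with unmatched transcripts kept (adjusted p = 0.0606, edgeR). Curated transcripts held 9.01 of these reads in S9, 7.46 in S14 and none in the other libraries, all further reads being on predicted transcripts, so no value could be had from curated transcripts alone.

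Cyp11a1 is the main P450 of these cells, yet no strain difference was detectable relative to the other genes. It had 47835, 48748 and 58917 reads in BALB/c against 51712, 41606 and 55092 in C57BL/6. The strain means were 1569 ± 66.6 and 1571 ± 42.2 CPM (SD, n = 3), the libraries overlapped in CPM, and the log2 fold change was 0.00 (SE 0.04, adjusted p = 0.97, edgeR). On the scale of plain library sizes, the change was -0.14, close to the shift of the median gene, and it passed the test (adjusted p = 0.019, edgeR). In TPM the strains did not overlap, with 1292 to 1389 in BALB/c against 1123 to 1237 in C57BL/6. Its electron donors ferredoxin Fdx1 and ferredoxin reductase Fdxr, which pass electrons to mitochondrial P450s, fell by 0.17 (SE 0.05, adjusted p = 0.023, edgeR) and by 0.28 (SE 0.06, adjusted p = 0.0027, edgeR) on the log2 scale. Por, which serves the P450s of the endoplasmic reticulum, had a value of 0.02 (SE 0.03) with overlapping strains. Cyp51 had a value of 0.05 (SE 0.04) and the orphan P450 Cyp20a1 one of 0.07 (SE 0.06), and neither passed the test.

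**Figure D3:**
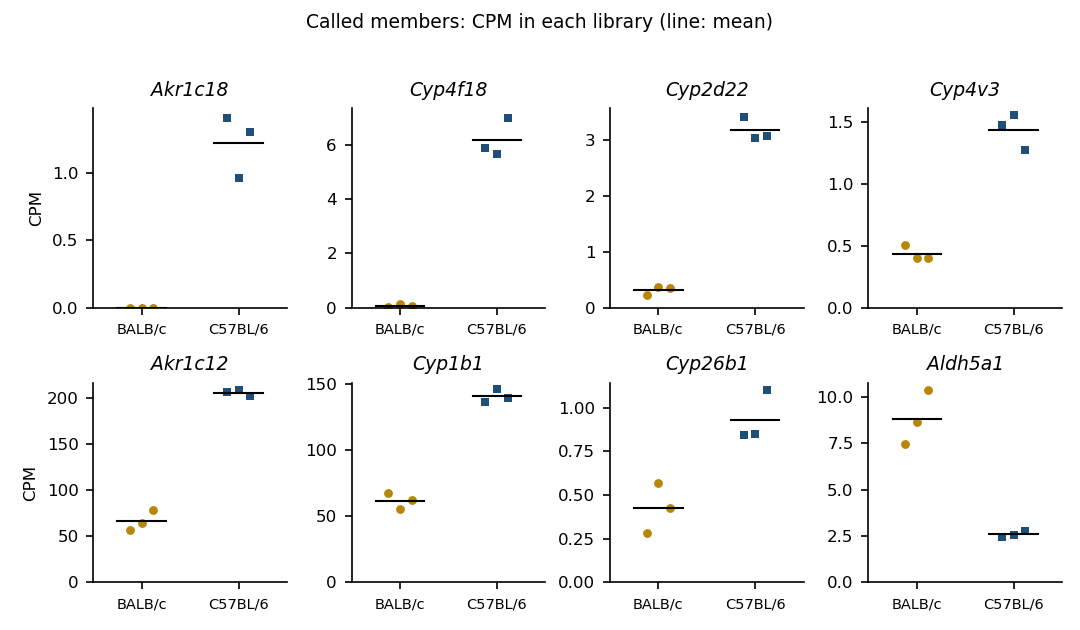
CPM of the 8 called members in each library, with 1 point per library and a line at the mean of each strain (3 libraries each, axes start at 0). In every panel the points of the strains are apart, with Akr1c18 at 0 in all BALB/c libraries and Aldh5a1 the only gene that is higher in BALB/c.

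Among the aldo-keto reductases, Akr1c12 and Akr1c13 were assigned reads in opposite directions. The mouse Akr1c genes are hydroxysteroid dehydrogenases and related reductases, and all but Akr1cl, which is on chromosome 1, lie side by side on chromosome 13. In GRCm39 coordinates, Akr1c18 (chr13:4182614-4200672, reverse strand), Akr1c13 (chr13:4241149-4255602, forward strand), Akr1c19 (chr13:4278699-4302842, forward strand) and Akr1c12 (chr13:4318168-4329432, reverse strand) follow each other. Only Akr1c12, Akr1c13 and Akr1c18 of the 9 members named Akr1c had enough reads for a test.

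Akr1c12 was measured at 56.6, 64.1 and 78.4 CPM in BALB/c and at 206, 208 and 202 CPM in C57BL/6, a 3.09-fold higher level in C57BL/6 (log2 fold change 1.63, SE 0.10, adjusted p = 1.5e-06, edgeR). Akr1c13 went the other way, with 476, 499 and 525 CPM in BALB/c against 273, 294 and 275 CPM in C57BL/6, so that it fell by 0.83 on the log2 scale (SE 0.05, adjusted p = 1.1e-06, edgeR). For both genes the strains were well apart.

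These values depend on how reads are divided between 2 genes that are nearly copies. Their coding sequences have 972 bases each and differ at 37 positions (96.2% identity), with a longest identical run of 228 bases. Over whole transcripts they shared 488 words of 31 bases, 36.6% of those of the shorter. The next line pair shows the 90 coding bases where the 2 genes differ most (coding positions 313 to 402, read from GENCODE vM39 transcripts of GRCm39 on chr13), because only reads that cover such positions can be given to 1 of the genes. Capitals mark the 11 bases that differ between them.

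Akr1c12: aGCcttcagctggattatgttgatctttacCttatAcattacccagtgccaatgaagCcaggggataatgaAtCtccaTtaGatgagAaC

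Akr1c13: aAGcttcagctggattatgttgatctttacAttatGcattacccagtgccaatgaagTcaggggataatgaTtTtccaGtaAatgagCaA

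When the reads of the pair were summed, the direction of Akr1c12 was lost. The sum was 533, 563 and 604 CPM in BALB/c against 480, 503 and 477 CPM in C57BL/6, and it fell by 0.22 on the log2 scale (SE 0.05, adjusted p = 0.0050, edgeR). The share of Akr1c12 in the reads of the pair was 11.7% ± 1.21 in BALB/c against 42.2% ± 0.788 in C57BL/6 (SD, n = 3). The pair as a whole thus differed little while its division differed by far more than the spread. The reference sequences to which reads were assigned come from the C57BL/6 strain, and what strain-specific bases add to the division was not tested. Akr1c13 reads were moreover divided with a predicted transcript, which took 36.8% to 38.7% of them in BALB/c against 29.04% to 30.1% in C57BL/6. With curated transcripts alone the fall was 0.66.

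**Figure D4:**
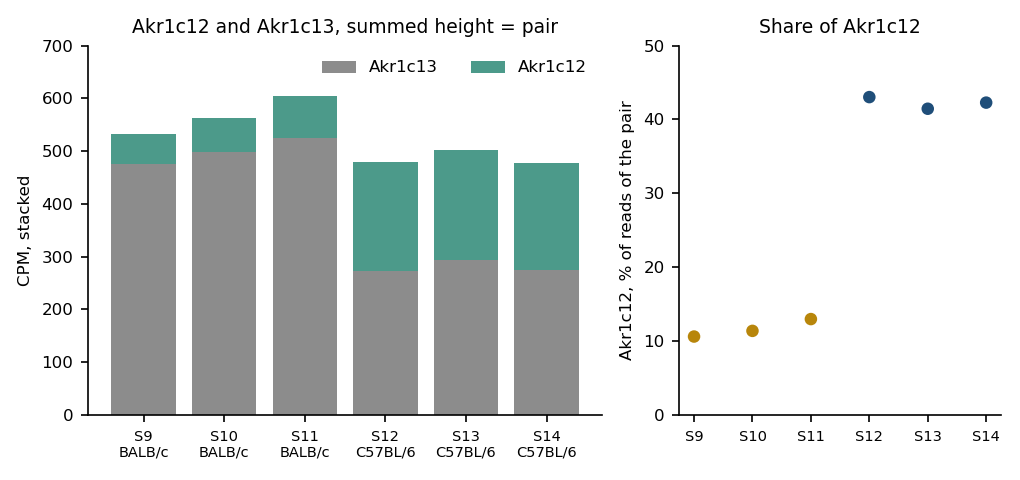
Left, CPM of Akr1c13 (grey) and Akr1c12 (green) stacked for each library, so that the bar height is the pair. Right, the share of Akr1c12 in the reads of the pair. The pair reaches 533 to 604 CPM in BALB/c against 477 to 503 CPM in C57BL/6, while the share has means of 11.7% in BALB/c and 42.2% in C57BL/6.

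Akr1c18, which inactivates progesterone, had 0 reads in each BALB/c library and 45, 26 and 46 reads in C57BL/6. Set against a limit of 3 counts per BALB/c library, it was at least 13.4-fold higher in C57BL/6 (adjusted p = 4.9e-05, edgeR), at a level of 1.22 ± 0.233 CPM (SD, n = 3). Its coding sequence is 73.9% identical to that of Akr1c12 and shares no word of 31 bases with it or with Akr1c13. Within the coding sequences, though not shown for whole transcripts, reads are thus not divided between Akr1c18 and either gene at that length. In the same stretch, the bases of Akr1c18 that differ from both other genes are given in capitals to show this.

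Akr1c18: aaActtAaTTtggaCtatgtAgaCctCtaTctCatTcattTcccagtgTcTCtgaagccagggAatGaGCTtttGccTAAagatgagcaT

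Akr1c19 had 1, 1 and 2 reads in BALB/c against 6, 8 and 13 in C57BL/6, too few for the test. Outside the Akr1c cluster, the values of the aldehyde reductases were nearly flat, with 0.03 for Akr1a1 (SE 0.04), 0.04 for aldose reductase Akr1b3 (SE 0.04), 0.02 for Akr1b10 and -0.14 for Akr7a5 on the log2 scale, and none of these passed the test. With plain library sizes or TPM, the values of Akr1a1, Akr1b3 and Akr1b10 turned negative with the median gene. By edgeR with plain library sizes, Akr1a1 (-0.12, adjusted p = 0.018), Akr1b3 (-0.10, adjusted p = 0.041) and Akr7a5 (-0.28, adjusted p = 0.0145) passed the test as lower, and Akr1b10 did not. Akr1e1 rose by 0.52 (SE 0.05, adjusted p = 4.7e-05, edgeR).

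The regions before the start of Akr1c12 and Akr1c13 are near copies too. They are printed from RefSeq's table for GRCm38.p6, from 250 bases before to 50 after the start, for Akr1c12 at chr13:4279350-4279649 (reverse strand) and for Akr1c13 at chr13:4190937-4191236 (forward strand). Of 296 aligned bases 284 were identical (95.9%), 1 base lay in a gap, and capitals mark the 12 that differ.

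Akr1c12: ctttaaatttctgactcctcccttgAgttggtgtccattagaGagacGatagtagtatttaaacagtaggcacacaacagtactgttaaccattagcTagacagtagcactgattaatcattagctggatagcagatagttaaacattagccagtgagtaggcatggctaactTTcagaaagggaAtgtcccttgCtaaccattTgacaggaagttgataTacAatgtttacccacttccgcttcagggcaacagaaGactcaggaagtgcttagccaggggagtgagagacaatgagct

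Akr1c13: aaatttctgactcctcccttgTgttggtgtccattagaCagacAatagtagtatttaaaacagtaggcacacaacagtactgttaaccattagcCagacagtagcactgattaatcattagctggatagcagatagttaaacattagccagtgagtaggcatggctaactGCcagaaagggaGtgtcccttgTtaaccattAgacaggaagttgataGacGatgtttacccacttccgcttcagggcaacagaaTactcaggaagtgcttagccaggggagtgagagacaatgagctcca

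Both strands of such regions were searched for GCGTG, the core bound by AhR, for TGACNNNGC, the core of the antioxidant response element bound by NRF2, and for AGATAA, a core bound by GATA factors. Of 32851 regions of this length in the table, 32.4% held the first, 12.4% the second and 11.2% the third. For the tested members, regions were found for 38 of 48 genes, and 17, 3 and 5 of their 44 regions held these letters. The Akr1c12, Akr1c13 and Akr1c18 regions held none. Of the called members other than Cyp2d22, which was not searched, Cyp1b1 and Cyp4v3 held the AhR core and Cyp4f18 held the other 2. The regions of Cyp1b1 (chr17:79715012-79715311, reverse strand) and Cyp4f18 (chr8:72009577-72009876, reverse strand) are shown because these are the P450s with the highest level and with the widest gap among those called. Capitals mark the matches, which are a description of letters and not of binding.

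Cyp1b1: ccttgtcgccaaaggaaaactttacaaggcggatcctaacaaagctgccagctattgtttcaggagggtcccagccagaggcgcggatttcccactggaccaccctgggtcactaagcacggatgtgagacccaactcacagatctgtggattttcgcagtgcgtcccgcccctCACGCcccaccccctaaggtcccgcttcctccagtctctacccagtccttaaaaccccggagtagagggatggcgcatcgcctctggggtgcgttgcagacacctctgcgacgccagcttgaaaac

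Cyp4f18: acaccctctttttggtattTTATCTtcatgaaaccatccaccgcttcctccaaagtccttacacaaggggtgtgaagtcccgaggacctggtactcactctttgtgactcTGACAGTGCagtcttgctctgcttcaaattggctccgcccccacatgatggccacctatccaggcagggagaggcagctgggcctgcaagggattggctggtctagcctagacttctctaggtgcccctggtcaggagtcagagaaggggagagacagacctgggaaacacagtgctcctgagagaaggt

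In Cyp1b1 the single match is the AhR core on the opposite strand. In Cyp4f18 the first match is the GATA core on the opposite strand and the later one is the antioxidant response element core. The cores overlap no other match in these regions.

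The aldehyde dehydrogenases gave the single member called lower in C57BL/6. Aldh5a1, the succinic semialdehyde dehydrogenase that completes the breakdown of GABA, was at 7.47, 8.63 and 10.4 CPM in BALB/c and at 2.45, 2.54 and 2.78 CPM in C57BL/6. The strains did not overlap, and the level was 3.41-fold lower in C57BL/6 (log2 fold change -1.77, SE 0.14, adjusted p = 9.5e-06, edgeR). Of the 13 tested members of the family, 8 were higher in C57BL/6 by the adjusted p, 2 were lower and 3 did not pass, where 27.0% of all genes were higher and 25.9% lower. With plain library sizes these numbers were 6 and 4, against 18.3% and 44.3% of all genes.

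The largest increases of the family were those of Aldh1l1, which oxidises formyltetrahydrofolate in folate metabolism, and Aldh7a1, which takes part in lysine breakdown. Aldh1l1 was at 22.0, 24.0 and 21.7 CPM in BALB/c and at 43.0, 40.9 and 42.1 CPM in C57BL/6 (log2 fold change 0.90, SE 0.05, adjusted p = 1.5e-06, edgeR). Aldh7a1 had 187, 173 and 224 reads in BALB/c against 374, 266 and 391 in C57BL/6 (0.89, SE 0.09, adjusted p = 5.1e-05, edgeR). Neither reached 2-fold, although no library of either gene overlapped with the other strain.

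Aldh4a1 of the proline pathway rose by 0.49 (SE 0.04, adjusted p = 7.5e-06, edgeR), and Aldh6a1 of the valine pathway rose by 0.53 (SE 0.12, adjusted p = 0.0064, edgeR), but with curated transcripts alone its value was 0.40, which did not pass. The abundant Aldh2 rose by 0.25 (SE 0.05, adjusted p = 0.0029, edgeR), from 273 ± 16.1 to 325 ± 12.8 CPM (SD, n = 3), and by 0.11 with plain library sizes, which did not pass the test. Aldh18a1 rose by 0.27 (SE 0.04), Aldh3a1 by 0.51 (SE 0.12) and the fatty aldehyde dehydrogenase Aldh3a2 by 0.18 (SE 0.04). With plain library sizes, Aldh18a1 was at 0.13 and still passed, Aldh3a2 was at 0.03 and did not, and with TPM neither passed. Aldh16a1, a family member with less known activity, fell by 0.28 on the log2 scale (SE 0.04, adjusted p = 4.3e-04, edgeR).

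The tested glutathione transferases differed by less than 2-fold. Gstp1, the most abundant, was at 71.9, 80.8 and 82.4 CPM in BALB/c and at 70.1, 70.6 and 69.0 CPM in C57BL/6, and fell by 0.17 on the log2 scale (SE 0.05, adjusted p = 0.026, edgeR). Gsto1, of the omega class, which reduces glutathione adducts, was at 16.1, 15.9 and 18.2 CPM in BALB/c and at 28.3, 23.9 and 26.0 CPM in C57BL/6, the largest increase of the family (0.64, SE 0.08, adjusted p = 1.7e-04, edgeR). Neither gene overlapped between the strains, but Gstp1 came close, and it lost the adjusted p under 7 alternatives, among them leaving out any library but S9 (adjusted p = 0.0638 to 0.0824, edgeR).

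Gstz1, which isomerises an intermediate of tyrosine breakdown, fell by 0.33 (SE 0.06, adjusted p = 0.0017, edgeR) and the mitochondrial and peroxisomal Gstk1 by 0.57 (SE 0.17, adjusted p = 0.021, edgeR). The theta class genes Gstt2 and Gstt3 both rose by 0.35, and the mu class genes Gstm1 and Gstm4 by 0.43 (SE 0.15) and 0.26 (SE 0.08). Gstt2 (0.21), Gstm1 (0.28) and Gstm4 (0.11) did not pass with plain library sizes, nor did Gstm1 and Gstm4 with DESeq2, and Gstk1 lost the adjusted p without S10, S13 or S14. Gstm5 had a value of 0.34 (SE 0.18) and Gstt1 one of -0.35 (SE 0.40), and neither passed the test. In all, 5 of the 10 tested genes were higher by the adjusted p and 3 lower, where 27.0% and 25.9% of all genes were. The numbers with plain library sizes were 2 and 3, against 18.3% and 44.3% of all.

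The microsomal transferases are related to leukotriene C4 synthase. Mgst2, which can make leukotriene C4 itself, was at 1.98, 2.45 and 2.21 CPM in BALB/c and at 1.41, 1.15 and 1.38 CPM in C57BL/6. It fell by 0.74 on the log2 scale (SE 0.18, adjusted p = 0.0069, edgeR), without overlap. Many of its reads lay on predicted transcripts, and with curated transcripts alone the value was -0.60, which did not pass the test (adjusted p = 0.154, edgeR). Mgst3 rose by 0.39 (SE 0.09, adjusted p = 0.0071, edgeR), from 5.95 ± 0.433 to 7.78 ± 0.153 CPM (SD, n = 3). Of the carboxylesterases, Ces2b had 15, 18 and 14 reads in BALB/c against 18, 16 and 26 in C57BL/6, with overlapping strains and no change past the test.

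Genes that act beside the members were taken from 4 lists, on glutathione synthesis and recycling, conjugation and export, oxidoreductases and electron donors, and regulators and NRF2 targets. Of these 107 genes 81 were tested, 8 (9.88%) were called higher in C57BL/6 and 1 (1.23%) lower, where 7.73% and 5.54% of all tested genes were. Of the 8, Ggt7 and Ptgis passed the filter on low counts only through C57BL/6, so these shares support nothing on their own. By the adjusted p alone 42 (51.9%) were higher and 16 (19.8%) lower, against 27.0% and 25.9% of all, and with plain library sizes 27 (33.3%) and 28 (34.6%), against 18.3% and 44.3% of all. The median log2 fold change over the 81 was 0.15.

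Ahr encodes the receptor AhR, of which Cyp1b1 is a classical target. Its level was also higher in C57BL/6, with 109, 99.4 and 90.2 CPM in BALB/c against 236, 235 and 232 CPM in C57BL/6. This was 2.35-fold with no overlap (log2 fold change 1.24, SE 0.06, adjusted p = 5.4e-07, edgeR). Of 2 further genes known to be induced through it, Tiparp rose by 0.60 (SE 0.06) and the repressor Ahrr by 0.27 (SE 0.08), while its partner Arnt had a value of -0.06 (SE 0.05). The value of Ahrr was 0.13 with plain library sizes, which did not pass the test, and that of Arnt was -0.21, which did (adjusted p = 0.0042, edgeR). Nqo1, a quinone reductase under both AhR and NRF2, was at 19.9, 14.5 and 15.9 CPM in BALB/c and at 39.7, 40.1 and 40.0 CPM in C57BL/6 (1.25, SE 0.10, adjusted p = 8.0e-06, edgeR). Whether the higher level of Ahr bears on Cyp1b1, Tiparp, Ahrr or Nqo1 was not tested.

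Of the NRF2 side, the small Maf protein Maff (2.28, SE 0.26) and the stress gene Osgin1 (1.28, SE 0.08) were called higher. Hmox1, which degrades haem, rose by 0.99 (SE 0.06) and thus just under 2-fold, and the sulphiredoxin Srxn1 rose by 0.69 (SE 0.05). Nfe2l2, which encodes NRF2, had a value of 0.07 (SE 0.05) that did not pass the test, and its inhibitor Keap1 had a small value of -0.13 (SE 0.04) that became -0.27 with plain library sizes. Thioredoxin Txn1 fell by 0.37 (SE 0.04, adjusted p = 7.1e-05, edgeR). Of the enzymes of the pentose phosphate pathway on the list, G6pdx had a small value of 0.15 (SE 0.05) that became 0.01 with plain library sizes, Pgd one of -0.14 (SE 0.05), and Taldo1 one of -0.02 (SE 0.05), which did not pass the test. In all, 14 of the 22 tested genes of this list were higher by the adjusted p and 3 lower, with 27.0% and 25.9% of all genes as background, and with plain library sizes 9 and 5, with 18.3% and 44.3%. In glutathione synthesis, Gclm, the regulatory subunit of the first enzyme, rose by 0.38 (SE 0.05), whereas the catalytic subunit Gclc fell by 0.21 (SE 0.04). The cystine carrier Slc7a11 rose by 0.94 (SE 0.23).

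Further called genes were the exporter of glutathione and glucuronide conjugates Abcc3 (2.02, SE 0.24), the transferase-like Ggt7 (2.22, SE 0.34), the carbonyl reductase Cbr3 (1.19, SE 0.20) and Ptgis, the prostacyclin synthase, which is a P450 under another symbol (2.67, SE 0.31). Ptgis had 6, 4 and 4 reads in BALB/c against 28, 26 and 33 in C57BL/6, so it is a low transcript in both. Ggt7 had 8, 4 and 5 reads in BALB/c against 30, 20 and 27 in C57BL/6. Both passed the filter on low counts only through C57BL/6, so they could only come out higher. On the scale of log2(TPM + 1), which understates low genes, Abcc3, Ggt7, Cbr3 and Ptgis were all under 2-fold. The 1 gene called lower was Glo1, the glyoxalase that removes methylglyoxal with glutathione. Its level was 244, 232 and 249.5 CPM in BALB/c against 118, 114 and 116 CPM in C57BL/6, 2.08-fold lower in C57BL/6 (log2 fold change -1.06, SE 0.04, adjusted p = 8.9e-08, edgeR).

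Hpgds and Ltc4s, glutathione-dependent enzymes of mast cell eicosanoids, were higher in C57BL/6 but under 2-fold, unlike Mgst2, which fell. Hpgds, which makes prostaglandin D2, was at 57.1, 46.9 and 50.3 CPM in BALB/c and at 88.4, 93.6 and 86.4 CPM in C57BL/6 (0.80, SE 0.07, adjusted p = 1.4e-05, edgeR). Ltc4s, the leukotriene C4 synthase, was at 26.9, 27.8 and 29.3 CPM in BALB/c and at 32.5, 34.2 and 32.8 CPM in C57BL/6 (0.24, SE 0.05, adjusted p = 0.0038, edgeR). Its value was 0.10 with plain library sizes, which did not pass the test. The thromboxane synthase Tbxas1, another P450 under its own symbol, rose by 0.20 (SE 0.04), and with plain library sizes was at 0.06, which did not pass either.

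**Figure D5:**
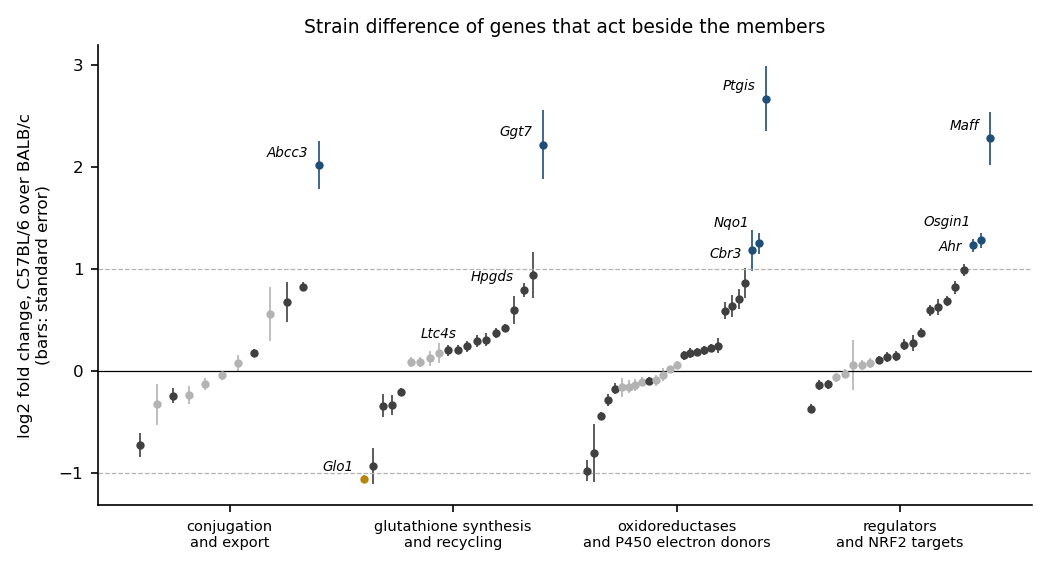
Log2 fold change, C57BL/6 relative to BALB/c (edgeR, bars are standard errors) for the 81 tested genes that act beside the members, ordered by value within each of 4 lists, with dashed lines at 2-fold. Blue points were called higher, the golden point (Glo1) lower, dark grey points passed the adjusted p only and light grey points did not. The called genes reach from -1.06 for Glo1 to 2.67 for Ptgis.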

How the data were processed

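The authors sequenced strand-specific mRNA libraries (100 bases from each end) of BMMCs and, per the submitters' processing notes, checked reads with FastQC 0.11.5 and assigned them with Salmon 0.8.2. The deposited tables give, per transcript and library, an estimated count, which need not be whole, and a TPM, which the authors obtained from Salmon as a level per transcript length with an equal total in each library. The study's methods name Ensembl transcripts of GRCm39, while the tables list RefSeq accessions. These were matched without version to symbols in a RefSeq table of GRCm38.p6 (106430 of 129698 transcripts, 82.1%), and unmatched transcripts (2.69% to 3.12% of reads) were left out. Gene positions and coding sequences come from GENCODE vM39 (GRCm39) and promoter regions from RefSeq (GRCm38.p6).

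Estimated counts were summed per gene, rounded and tested with edgeR 4.0.16 (R 4.3.3; quasi-likelihood, TMM, minimum count 10, strain only, Benjamini-Hochberg), after the steps were tested on simulated data. TPM were summed per gene for levels. With 28271211 to 37098659 reads per library, depth limits only genes with few reads, and intervals and the limit of 3 counts cover counting error only. Replicate libraries differed by more than counting noise (chi-square per degree of freedom 6.61 to 13.6). Each counted as a sample, although this spread cannot show that the libraries came from separate cultures or mice. An exact permutation test of 3 against 3 cannot go below p = 0.1, so the fit over all genes was used. Alternatives were DESeq2 1.42.0, its size factors in edgeR, plain library sizes, a transcript length offset, other filters, log2(TPM + 1) or log2(TPM + 0.1) fitted with limma 3.58.1, curated transcripts alone, members sharing at least 25% of words of 31 bases summed, and each library left out. Keeping unmatched transcripts as features was chosen after seeing the data. Named are the called members, the 3 with the highest TPM in each family, the called related genes, Hpgds and Ltc4s. Of the top 3 carboxylesterases, Ces2g and Ces2c had at most 2 reads in a library and were not described beyond this. Other members and related genes were named after their values were seen, to complete a family or pathway. The members and lists were chosen with earlier results of these data known.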

Additional observations from a re-analysis of the deposited data

How the results depend on the processing

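Most genes kept direction and side of the call, which asks for adjusted p and 2-fold together: of 808 values for 48 followed genes (named members and related genes, not the tested members), 780 did, and 37 genes did so under each alternative that gave a value (15 to 17 per gene, fewer than 17 for 6). By adjusted p alone stability was lower, since of 44 genes past it 17 lost it at least once, among them Aldh2 (up to 0.285), Aldh3a2 (0.936) and Ltc4s (0.254). The members called higher numbered 3 with at least 10 counts in every library, which tests fewer genes, and 25 by adjusted p alone. Those called lower numbered 2 with DESeq2 and with no filter, 1 to 2 when a library was left out, and 8 by adjusted p alone. The added gene was Cyp4f15 each time (without S11, S12, S13 or S14). Of the related genes, 4 were called higher with log2(TPM + 1), and called lower were 3 with plain library sizes and with log2(TPM + 0.1), 2 with no filter and with curated transcripts, and 1 to 2 without a library (2 without S9, S10 or S14). Akr1c12 turned to -0.22 when summed with Akr1c13, since that sum is mostly Akr1c13. With plain library sizes, log2(TPM + 1) and log2(TPM + 0.1), the median of all genes was -0.15, -0.15 and -0.18, against -0.01 in the main fit. In this order of settings, Akr1a1 turned to -0.12, -0.15 and -0.15, Cyp11a1 to -0.14, -0.18 and -0.18, and Cyp51 to -0.096, -0.13 and -0.13. Cyp11a1 was also -0.0039 with no filter, -0.0052 with unmatched transcripts kept, and -0.030 to 0.031 without a library. Cyp26b1 lost its call with DESeq2 (adjusted p = 0.0559), plain library sizes (0.99), both TPM scales and unmatched transcripts kept (adjusted p = 0.0606), and had no value with curated transcripts or at least 10 counts in every library. Cyp4v3 (0.43), Ggt7 (0.36), Abcc3 (0.78), Cbr3 (0.62) and Ptgis (0.60) lost theirs with log2(TPM + 1), and Cbr3 (0.95) with log2(TPM + 0.1). Cyp2r1 was called with curated transcripts alone (1.11). For these the cause was not tested. No paired analysis was possible because the libraries of the strains share no replicate numbers. Depth limits the 135 untested members, of which DESeq2 and the fit with no filter called Cyp4f15 lower and Akr1c19 and Cyp4a12a higher (named after their values were seen).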
